A study of Mus musculus with 7 samples.

Results

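Bone marrow of mice transplanted with ABCG2-expressing marrow (2 arrays) was compared with bone marrow of mice transplanted with EZH2-Mt-expressing marrow (2 arrays). The 4 arrays were chosen by their transgene labels out of 7 arrays in the series, and the other 3, from recipients of marrow with a mock control transgene, served only to show which side had moved. Every array held mouse bone marrow cells taken from transplant recipients after death, and every transplant carried a transgene, the mock included. The EZH2-Mt marrow came from mice described as MDS-like (MDS being myelodysplastic syndrome, in which blood cells form poorly) and was sorted into a GFP-negative fraction (1 array) and a GFP-positive fraction (1 array), GFP being green fluorescent protein. ABCG2 and mock marrow was not sorted. The strain, sex and age of the mice, the vectors and promoters behind the transgenes, and the meaning of "Mt" are not stated in the labels. The recipients are not numbered, so the fractions could come from 1 mouse or from more, and every p-value rests on the spread among these arrays, which may be technical. Because a sorted marrow is set against an unsorted one, the sort and the transgene cannot be told apart, and only the ABCG2 arrays have a certain tag in their titles, with its meaning not given.

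Bone marrow makes all blood cells from stem and progenitor cells, and the neutrophil series is by far its most abundant product. Neutrophils fill their granules in a fixed order, with myeloperoxidase and the serine proteases of the primary granules first and collagenase, lactoferrin and gelatinase later, so the transcripts in a marrow sample depend on which stages are present. ABCG2 is an efflux pump for drugs and porphyrins that marks stem cells able to exclude dyes, and EZH2 is the enzyme of Polycomb repressive complex 2 that methylates histones.

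The values are deposited log signals, taken as log2 although the base is not stated, centred so that the median of the 7 arrays was 0 in each of 16309 probe sets. A value is therefore a distance from that median, with no absolute level, and a value of 0 marks the array that was itself the median. A probe set was kept by the authors only where it was called Present or Marginal on all arrays, so a gene below detection on any array is not among the values, and a low value is a low but detected signal. Over 8378 genes, each the mean of its probe sets, the array medians lay between -0.01 and 0.09. The SD over genes was 1.12 and 1.21 on the ABCG2 arrays, 0.38 on the GFP-negative and 0.44 on the GFP-positive array, and 0.30 to 0.39 on the mock arrays.

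The transcripts added to each sample as controls did not lie at the same value on all arrays. Over their 40 probe sets the median was 1.52 on the GFP-negative and 3.09 on the GFP-positive array, 0 on each mock array and -0.89 and -1.40 on the ABCG2 arrays. On both EZH2-Mt arrays all 40 lay above every mock array, and on the ABCG2 arrays 37 and 38 of 40 lay below every mock array. The 4 probe sets of bioB, which goes in at hybridization, had medians of -3.07 and -3.20 on the ABCG2 arrays, while the 12 of bioC, bioD and cre, added in the same step, had -0.21 and -0.33. The 3'-to-5' difference bears on how complete the transcripts were. Here it was taken between centred values, so it is relative to the other arrays and gives no absolute ratio. For actin it was 0.40 and 0.42 on the ABCG2 arrays and -0.05 to 0.04 on mock arrays. On the GFP-negative and GFP-positive arrays it was 0.14 and 0.31. For Gapdh it was -0.08 and -0.11 on the ABCG2 arrays, 0.09 and 0.35 on the EZH2-Mt arrays and -0.08 to 0.10 on mock arrays. The controls thus also set the ABCG2 arrays apart from the EZH2-Mt arrays. Which arrays lay further from mock depended on the controls taken. By the medians over all 40, the GFP-negative and GFP-positive arrays lay further from mock than the ABCG2 arrays did. By those of bioB (0.99 and 2.47 on the GFP-negative and GFP-positive arrays), the ABCG2 arrays lay further. The part of the controls in the results below was not tested.

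**Figure D1:**
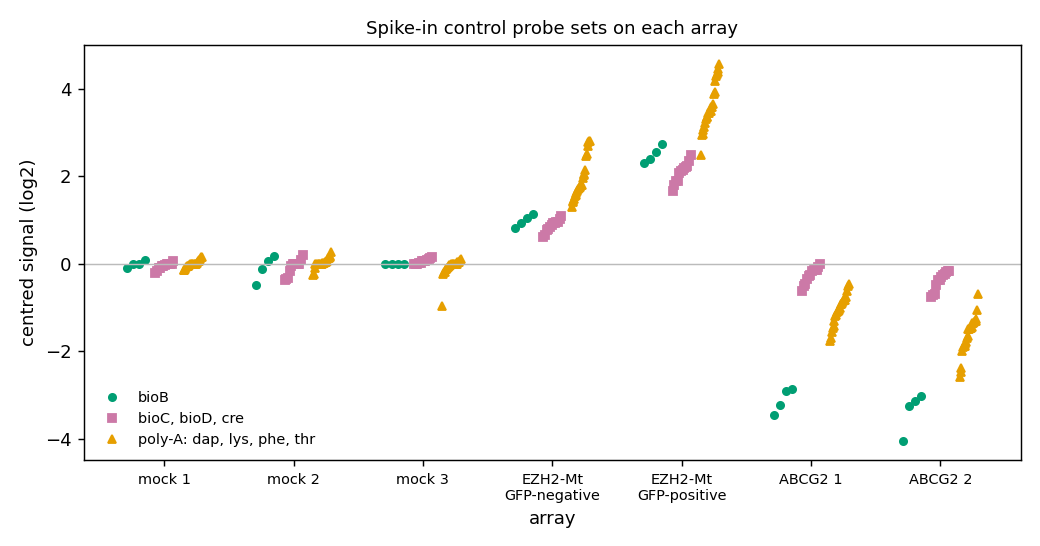
Centred log2 signal (vertical axis) of the 40 spike-in control probe sets on each of the 7 arrays (horizontal axis), 1 point per probe set, with bioB, the other hybridization controls and the poly-A controls in separate columns. The controls sit above 0 on both EZH2-Mt arrays (medians 1.52 and 3.09) and their medians are below 0 on both ABCG2 arrays (-0.89 and -1.40), where bioB is lowest.

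ABCG2 and EZH2-Mt marrow differed over a large part of the genes measured. By limma's moderated test with an adjusted p under 0.05 (Benjamini-Hochberg over all genes), 3822 of 8378 genes differed, which is 45.6%, with 2009 higher (24.0%) and 1813 lower (21.6%) in ABCG2 marrow. At the level of probe sets, 6579 of 16255 differed (40.5%), 3187 of them higher (19.6%) and 3392 lower (20.9%). The differences ran further downward than upward. The median size was 1.16 log2 among the genes called higher and 1.32 among those called lower, and differences of 3 or more were found in 55 genes called higher and in 229 called lower. Differences of 5 or more were found in 6 and 57 genes. All 3822 called genes had ABCG2 arrays that did not overlap the EZH2-Mt arrays, a state that also held for 40.4% (above) and 35.6% (below) of all 8378 genes. Any difference between fractions is part of the spread of this test. Quantile normalization of the arrays, which forces the wide ABCG2 arrays to the spread of the others, left 2202 genes called. Among the genes described below it ended the calls for Acp5, Angpt1, Bcl2, Bcl2l11, Casp1, Ccne2, Cd3d, Ddit4, Egr3, Ezh2, Fli1, Gadd45a, Gimap4, Gimap6, Gp1bb, Il1r2, Jchain, Mcm6, Mdm2, Myc, Ndufs3, Nlrc3, Oasl1, Rfc2, Smad5, Smurf2, Socs3, Stag2 and Zeb2, with no change of direction.

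The fractions lay much closer to each other than to ABCG2 marrow. Between the GFP-negative and the GFP-positive array 260 genes differed by 1 log2 or more, and between the ABCG2 arrays 364 did. From 2696 to 2836 genes did so in the 4 pairings of an ABCG2 array with an EZH2-Mt array, and 30 to 155 between pairs of mock arrays. Tested against each fraction by limma over all 7 arrays, 2148 genes were higher (25.6%) and 1861 lower (22.2%) than in the GFP-negative array, and 2130 were higher (25.4%) and 1930 lower (23.0%) than in the GFP-positive array. Each fraction is a lone array in those tests and was assumed to vary like the mock and ABCG2 arrays.

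Set against the mock range, most of the called genes that could be placed were placed on the ABCG2 side. A side was said to leave mock where both of its arrays lay 0.5 or more beyond all mock arrays on the same side, and to lie at mock where both lay within the mock range widened by 0.5. ABCG2 marrow left mock while EZH2-Mt marrow lay at mock in 1157 of the genes called higher and 987 of those called lower (57.6% and 54.4%), against 28.9% of all genes. EZH2-Mt marrow left mock while ABCG2 marrow lay at mock in 55 and 68 genes (2.74% and 3.75%), against 2.17% of all genes. The sides left mock in opposite directions in 36 and 31 genes (1.79% and 1.71%), against 0.80% of all genes. They left it in the same direction, but to different extents, in 39 and 76 (1.94% and 4.19%), against 3.07% of all genes. The other 722 and 651 (35.9% of each) fell in none of these classes, against 65.0% of all genes. These are descriptions with no test, and the numbers of the last classes moved with the width of the margin.

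Neutrophil genes had the lowest values in ABCG2 marrow. All 7 measured genes of the primary granule list and all 22 of the later granule and maturation list were called lower, with median differences of -6.29 and -5.21, against 21.6% lower and a median of 0.07 over all genes. After quantile normalization all of them were still called lower, with medians of -3.48 and -2.64. In bulk marrow, fewer cells of a type and less RNA per cell cannot be told apart.

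Mpo, the myeloperoxidase of the primary granules, had the largest difference of all genes. It read 0.16 on the GFP-negative and 1.19 on the GFP-positive array, -0.32, 0.03 and 0 on the mock arrays, and -6.22 and -7.33 on the ABCG2 arrays. The GFP-negative array lay a little above mock and the GFP-positive array further above it, and only the ABCG2 arrays were low. The difference was -7.45 ± 0.47 (SE, n = 2 against 2, adjusted p = 0.000179), or 175-fold if the logs are base 2. Ms4a3, a membrane protein of granulocyte and monocyte progenitors, followed at -7.11 ± 0.45. The serine protease genes Ctsg (cathepsin G) and Prtn3 (proteinase 3) stood at -6.80 ± 0.39 and -6.29 ± 0.34. All 3 shared the order seen in Mpo, with the GFP-positive array highest. Haptoglobin (Hp) differed by -5.74 ± 0.39. Nkg7, a granule membrane protein that cytotoxic lymphocytes also make, differed by the smaller amount of -1.68 ± 0.22.

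Among the later granule genes, Mmp8, the neutrophil collagenase, read 0.25 on the GFP-negative and 0.37 on the GFP-positive array, 0 to 0.19 on mock, and -5.69 and -7.62 on the ABCG2 arrays. The ABCG2 arrays differed from each other by far more than the other 5 did, and both were far below them. Its difference was -6.96 ± 0.57 (adjusted p = 0.000401). Differences of about that size were measured in Cd177, a surface protein of neutrophils (-6.35 ± 0.49), Pygl, a glycogen phosphorylase (-6.30 ± 0.50), Pglyrp1, a bactericidal granule protein (-6.08 ± 0.48), the receptor gene Trem3 (-6.01 ± 0.45) and G0s2, an inhibitor of fat breakdown (-5.90 ± 0.38). The second ABCG2 array was the lower one in all 6. In 11 of the 22 genes ABCG2 marrow had left mock while EZH2-Mt marrow lay at mock. That class held 54.4% of all genes called lower. Of the 7 primary granule genes 1 was in it, and the other 6 fell in none of the classes. Without the GFP-positive array 16 of the 22 were called, and without the GFP-negative array 20.

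Other genes at the low end were not on those lists. Clec4a2, a lectin receptor of myeloid cells, differed by -6.67 ± 0.46 and the annexin gene Anxa3 by -6.64 ± 0.38. Pxylp1 and Csgalnact2, both enzymes that build the sugar chains of proteoglycans, differed by -6.49 ± 0.34 and -6.36 ± 0.28. In each of the 4 the EZH2-Mt arrays lay between 0.09 and 0.43 and the ABCG2 arrays at -5.66 or below.

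**Figure D2:**
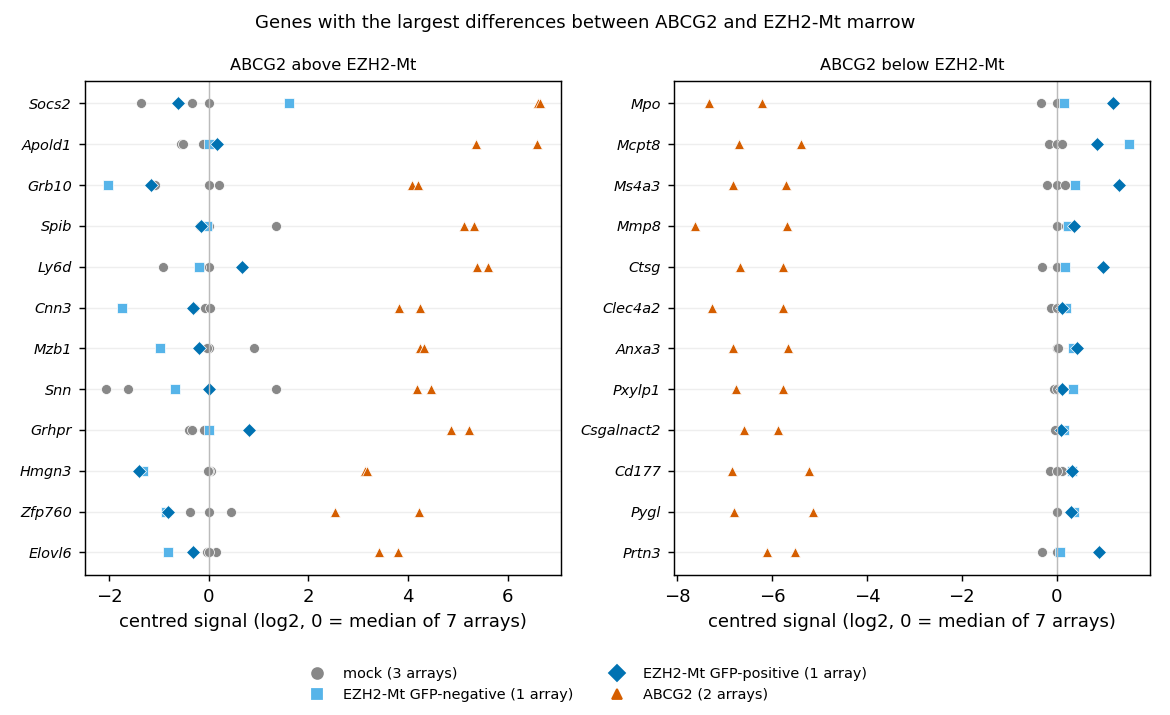
Centred log2 signal (horizontal axis) of the 12 genes with the largest positive and the 12 with the largest negative difference between ABCG2 and EZH2-Mt marrow, 1 point per array. The ABCG2 arrays stand apart from the other 5 in all 24 genes, and on the low side the EZH2-Mt arrays lie at 0 or above it.

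Promoters were searched because the genes above had low values together, and because PU.1 and C/EBP factors are known regulators of neutrophil and monocyte genes. Those printed, of Mpo, Mmp8, Prtn3 and Spib, each hold a match, so they do not represent the 12 genes with the lowest differences. All promoters are RefSeq windows of 250 bases upstream of the start (GRCm38.p6), found by symbol for 6929 of the 8378 genes. Capitals mark a match on either strand to GAGGAAGT, a PU.1 core, or to TTGCNNAA, a C/EBP motif. The windows are chr11:87793534-87793783 (+ strand) for Mpo, chr9:7558179-7558428 (+ strand) for Mmp8, chr10:79879417-79879666 (+ strand) for Prtn3 and chr7:44532072-44532321 (- strand) for Spib, the last of which was higher in ABCG2 marrow.
Mpo: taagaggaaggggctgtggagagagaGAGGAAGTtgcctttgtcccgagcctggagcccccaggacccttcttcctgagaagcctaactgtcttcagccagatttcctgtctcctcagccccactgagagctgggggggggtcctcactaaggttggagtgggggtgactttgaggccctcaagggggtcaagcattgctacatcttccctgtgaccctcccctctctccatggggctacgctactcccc
Mmp8: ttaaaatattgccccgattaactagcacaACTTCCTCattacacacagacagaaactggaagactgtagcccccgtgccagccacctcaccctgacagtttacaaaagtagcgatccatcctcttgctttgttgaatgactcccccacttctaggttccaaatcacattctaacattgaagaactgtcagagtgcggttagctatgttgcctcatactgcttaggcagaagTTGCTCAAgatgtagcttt
Prtn3: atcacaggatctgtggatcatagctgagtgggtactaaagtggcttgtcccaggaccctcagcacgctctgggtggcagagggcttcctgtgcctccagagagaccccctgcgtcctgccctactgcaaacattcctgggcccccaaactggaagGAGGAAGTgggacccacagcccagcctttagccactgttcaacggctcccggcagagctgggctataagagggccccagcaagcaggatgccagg
Spib: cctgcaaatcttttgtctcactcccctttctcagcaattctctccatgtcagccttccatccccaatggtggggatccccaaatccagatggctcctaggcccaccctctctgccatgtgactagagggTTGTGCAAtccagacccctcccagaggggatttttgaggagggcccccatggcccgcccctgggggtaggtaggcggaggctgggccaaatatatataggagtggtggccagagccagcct
Mpo and Prtn3 hold a PU.1 match at -224 and -95 bases from the start, Mmp8 a PU.1 match at -221 and a C/EBP match at -19, and Spib a C/EBP match at -121. Windows were found for 11 of the 12 genes with the lowest differences, and 8 of the 11 hold neither motif (Mcpt8, Ms4a3, Ctsg, Clec4a2, Pxylp1, Csgalnact2, Cd177 and Pygl). Of the 8 windows found for the 12 highest genes, 2 hold a match, that of Spib and a PU.1 match at -180 in Elovl6. The PU.1 letters were found in 2.73% of all 6929 windows, in 3.07% of those of genes called lower and in 2.38% of those called higher. Among the 44 genes with a window that were lower by 5 or more, 4 held them (9.09%), and among 39 that were higher by 3 or more 1 did (2.56%). The C/EBP letters stood in 7.30% of all windows, 9.55% of those called lower and 6.42% of those called higher, and in 5 of the 44 (11.4%) and 7 of the 39 (17.9%). Also searched were the octamer ATGCAAAT, the GATA motif AGATAA and the E-box CAGCTG, which stood in 1.24%, 5.48% and 10.1% of all windows and in none of the 4 printed. A match is a description of letters and was given no test. Spi1, the gene that encodes PU.1, was lower in ABCG2 marrow, by -2.41 ± 0.19 (it was singled out after its values were seen). It read -2.43 and -2.44 on the ABCG2 arrays, 0 and -0.05 on the EZH2-Mt arrays and 0.34 to 0.39 on mock. Any link between the level of Spi1 and the genes above was not tested.

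Monocyte and macrophage genes were lower too, and here EZH2-Mt marrow often lay below mock as well. Of 22 genes measured, 17 were called lower (77.3%) and 0 higher, against 21.6% and 24.0% of all genes. The median difference of the list was -2.46 (-1.33 after quantile normalization). In 7 of the 17 both marrows had left mock in the same direction, against 4.19% of all genes called lower. F13a1, the coagulation factor XIII A chain made by monocytes and platelets, read -0.65 on the GFP-negative and 0 on the GFP-positive array, 0.70 to 0.82 on mock, and -5.68 and -5.56 on the ABCG2 arrays. All 3 groups were apart, with EZH2-Mt marrow slightly and ABCG2 marrow far below mock, and the difference was -5.30 ± 0.27. Cd14, the co-receptor for bacterial lipopolysaccharide, had the same order, with 0 and -0.30 in EZH2-Mt marrow, 0.70 to 1.12 on mock and -4.54 and -5.74 in ABCG2 marrow (-4.99 ± 0.39). The lysozyme gene Lyz2 (-4.46 ± 0.28) and the Fc receptor gene Fcgr4 (-4.17 ± 0.23) were also lower. Slc40a1, the iron exporter ferroportin, differed by -4.80 ± 0.24, with EZH2-Mt arrays at mock. Those not called were Mrc1 (1.12), C1qb (0.87), Adgre1 (-0.78), Irf8 (-0.55) and Ctss (-0.35).

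On the list of basophil, mast cell and eosinophil genes, not all of them particular to those cells, 6 of 8 were called lower (75%) and 0 higher. Over all genes 21.6% were lower and 24.0% higher. The median of the list was -5.15 (-2.65 after quantile normalization). Mcpt8, a protease of basophils, read 1.52 on the GFP-negative and 0.84 on the GFP-positive array, -0.15 to 0.12 on mock, and -5.40 and -6.69 on the ABCG2 arrays. EZH2-Mt marrow lay above mock and ABCG2 marrow far below it, and the difference was -7.23 ± 0.45, the largest after Mpo. The eosinophil granule genes Epx (-5.21 ± 0.50) and Prg2 (-5.10 ± 0.59), the histidine decarboxylase gene Hdc (-5.27 ± 0.65) and the lipoxygenase gene Alox5 (-5.10 ± 0.27) were lower as well, and so was Il6 (-6.04 ± 0.77), an interleukin that mast cells can make. The mast cell genes Cpa3 (-0.36) and Kit (-0.04) were not called.

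Erythroid genes were lower in ABCG2 marrow, and in several of them it was EZH2-Mt marrow that stood apart from mock. Of 10 genes measured, 9 were called lower (90.0%) and 0 higher (median -2.25), against 21.6% and 24.0% of all genes. In 4 of the 9 EZH2-Mt marrow was beyond mock and ABCG2 marrow at mock, and in 2 it was the other way round. These classes held 3.75% and 54.4% of all genes called lower. Rhag, part of the Rh complex of the red cell membrane, read 2.12 on the GFP-negative and 3.51 on the GFP-positive array, -1.55, 0 and -0.01 on mock, and 0.05 and -0.26 on the ABCG2 arrays. The ABCG2 arrays lay among the mock arrays and the EZH2-Mt arrays above both, and the difference was -2.92 ± 0.44 (adjusted p = 0.00302). Ermap, a membrane protein of red cell precursors, had the same order (1.67 and 3.22 against -0.85 and -0.46, with -2.15 to 0.32 on mock) and a difference of -3.10 ± 0.49. The erythroid regulators Tal1 and Klf1 differed by -2.39 ± 0.43 and -2.33 ± 0.57. The call for Klf1 was lost without the GFP-positive array (-1.51, adjusted p = 0.0845). Nfe2, a transcription factor of erythroid cells and megakaryocytes, differed in the other way: its EZH2-Mt arrays (0.09 and 0.11) lay at mock and its ABCG2 arrays (-3.51 and -4.0) below, a difference of -3.86 ± 0.24. Car1, a carbonic anhydrase of red cells, also had low ABCG2 arrays (-2.16 ± 0.28). The GFP-positive array was above the GFP-negative one in every gene of this list named here.

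Of 29 heme and iron genes measured, 14 were called lower (48.3%) and 2 higher (6.90%), against 21.6% and 24.0% of all genes. The median of the list was -0.78 (-0.52 without the GFP-positive array). Alas1, the housekeeping first enzyme of heme synthesis, read 0.68 and 0.80 in EZH2-Mt marrow, -0.07 to 0.20 on mock, and -2.17 and -2.21 in ABCG2 marrow (-2.93 ± 0.19). Ncoa4, which delivers ferritin for breakdown, had both sides off mock in opposite directions, with 0.63 and 0.84 against -1.60 and -1.62 (-2.34 ± 0.20). Slc11a1, an iron and manganese transporter of phagocytes (-3.71 ± 0.20), and Fbxl5, an iron-sensing ubiquitin ligase subunit (-2.13 ± 0.30), were lower. Slc40a1 stands on this list as well as on the monocyte list.

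Megakaryocyte and platelet genes were called lower in 5 of 9 measured (55.6%) and higher in 0, against 21.6% and 24.0% of all genes. The median of the list was -1.16, and -0.66 after quantile normalization, where 3 members were called lower and 1 higher. Thbs1, thrombospondin, read 0 on the GFP-negative and -0.57 on the GFP-positive array, 1.74 to 2.19 on mock, and -5.93 and -6.51 on the ABCG2 arrays. Both marrows lay below mock, ABCG2 marrow by far the more, and the difference was -5.93 ± 0.30. P-selectin (Selp) had the same order at a smaller size (-1.81 ± 0.23). Itga2b, the platelet integrin chain, differed by -1.55 ± 0.24 and the Ets factor gene Fli1 by -1.16 ± 0.25. Gp1bb, a chain of the von Willebrand receptor, was lower (-1.29 ± 0.33), a call lost without the first ABCG2 array, without the GFP-negative array or without the GFP-positive array.

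The highest values of ABCG2 marrow included several B-cell genes, but the B-lineage list as a whole was mixed. Of 13 measured, 5 were called higher (38.5%) and 2 lower (15.4%), against 24.0% and 21.6% of all genes. The median of 0.88 was 0.35 without the second ABCG2 array, 0.53 without the GFP-negative array and 0.39 after quantile normalization. Spib, a relative of PU.1 active in B and plasmacytoid dendritic cells, read -0.03 on the GFP-negative and -0.17 on the GFP-positive array, 0, 1.35 and -0.18 on mock, and 5.13 and 5.33 on the ABCG2 arrays. The EZH2-Mt arrays lay among the mock arrays and the ABCG2 arrays far above both, with a difference of 5.33 ± 0.20 (adjusted p = 0.000113), or 40.2-fold if the logs are base 2. Ly6d, carried by lymphoid progenitors that turn toward B cells, differed by 5.27 ± 0.31, the coactivator gene Pou2af1 by 4.01 ± 0.29 and the B-cell receptor chain Cd79b by 3.07 ± 0.41. Bach2, a repressor needed for B-cell and lymphoid fates, had EZH2-Mt arrays (0.07 and 0) a little above mock and ABCG2 arrays (2.67 and 2.59) well above it (2.59 ± 0.19).

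Other B-lineage genes went the other way or were not called. Ighm, the constant region of the mu heavy chain, read 0.59 and 1.60 in EZH2-Mt marrow, 2.50, -0.41 and -0.05 on mock, and -0.49 and -1.21 in ABCG2 marrow. The first mock array was the highest of all 7. Its difference of -1.95 ± 0.40 was lost without the GFP-positive array and when the mock arrays entered the estimate of the spread. Il7r, the interleukin-7 receptor chain of lymphoid precursors, was far from mock on both sides, with 1.43 on the GFP-negative and 0 on the GFP-positive array, 1.35 and 1.95 in ABCG2 marrow and -4.84 to -3.74 on mock. The marrows overlapped, and their difference of 0.94 did not pass the test (adjusted p = 0.150). Ms4a1 (-1.05), Cd22 (0.88), Bank1 (-0.66), Cd37 (0.59) and Blnk (-0.42) did not pass either. Without the GFP-positive array 0 genes of the list were called lower, and without the second ABCG2 array 4 were.

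Plasma cell genes were called higher in 2 of 8 (25%) and lower in 1 (12.5%), shares that lie near or below those of all genes. Their median of 0.01 ran from -0.50 without the GFP-negative array to 0.54 without the GFP-positive array. Mzb1, a chaperone of antibody-making cells, differed by 4.86 ± 0.29, with 4.24 and 4.32 on the ABCG2 arrays against -0.98 and -0.19 on the EZH2-Mt arrays and -0.04 to 0.91 on mock. Jchain, which joins antibody units, differed by 2.89 ± 0.68, and its GFP-negative array was far below the rest at -2.78. Edem1, of the disposal of misfolded glycoproteins, was lower (-1.10 ± 0.24), a call lost without the second ABCG2 array or without either EZH2-Mt array. Xbp1 (-0.50), Sdc1 (0.11) and Igha (0.29) were not called.

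T and NK genes showed 2 higher (28.6%) and 2 lower (28.6%) of 7 measured, against 24.0% and 21.6% of all genes. Gimap6 and Gimap4, GTPases of lymphocyte survival, were higher by 3.51 ± 0.48 and 2.40 ± 0.47, with the GFP-negative array above the GFP-positive one in both. The call for Gimap4 was lost when the mock arrays, which ran from -4.45 to -0.04, entered the estimate of the spread. Cd3d, a chain of the T-cell receptor complex, was lower (-1.75 ± 0.43). It read 1.42 on the GFP-negative and 0.06 on the GFP-positive array. Its ABCG2 arrays (-1.12 and -0.89) lay inside the mock range (-1.43 to 0.21). The other gene called lower was Nkg7, which also stands on the primary granule list. Klrd1, an NK-cell receptor chain, was the only gene of 8378 in which both ABCG2 arrays (2.54 and 2.98) lay within 0.5 of one fraction (2.58, GFP-negative) and 2 or more beyond the other (0, GFP-positive). Mock lay at -3.48 to -1.13. The difference from the fractions together was 1.47 ± 0.76 and did not pass the test (adjusted p = 0.156). Without the GFP-negative array it was 2.76 and passed (adjusted p = 0.0128).

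Dendritic cell and MHC class II genes were called in 2 of 11 measured, both higher (18.2%), against 24.0% higher and 21.6% lower over all genes. The 2 called were Tcf4, the master factor of plasmacytoid dendritic cells (2.97 ± 0.22), and Flt3 (2.20 ± 0.21), which also stands on the stem and progenitor list. The MHC class II genes H2-Ab1 (-0.47), H2-Aa (-0.32), H2-Eb1 (-0.33) and Cd74 (-0.03) were not called. Of the stroma and vessel list only 2 genes were measured, and Acp5, a phosphatase of osteoclasts, was higher by 1.59 ± 0.26 while Pdgfrb (0.67) was not called.

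Stem and progenitor genes were called higher in 8 of 14 (57.1%) and lower in 2 (14.3%), against 24.0% and 21.6% of all genes. Their median of 0.92 ran from 0.75 without the GFP-negative array to 1.08 without the GFP-positive array. After quantile normalization 5 were called higher and 1 lower, and with a minimum difference of 1 the counts were 4 and 2. Sox4, a factor of lymphoid and leukemic progenitors, read -0.77 and -0.57 in EZH2-Mt marrow, -0.68 to 0.09 on mock, and 2.10 and 2.62 in ABCG2 marrow. The EZH2-Mt arrays lay at mock and the ABCG2 arrays above both, by 3.03 ± 0.25. Egfl7 (2.83 ± 0.25), Flt3, the receptor of early lymphoid and myeloid progenitors, and Cd48 (2.04 ± 0.23) were higher too. In Cd48 it was mainly EZH2-Mt marrow that stood apart, at -1.38 and -1.71 against -0.45 to 0.05 on mock. Its ABCG2 arrays read 0.35 and 0.64. Angpt1, a ligand in the stem cell niche, was lower (-3.19 ± 0.42), as was the stem and erythroid factor Lmo2 (-1.93 ± 0.19). Satb1 (0.39), Runx1 (-0.14), Myb (0.06) and Kit (-0.04) were not called.

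**Figure D3:**
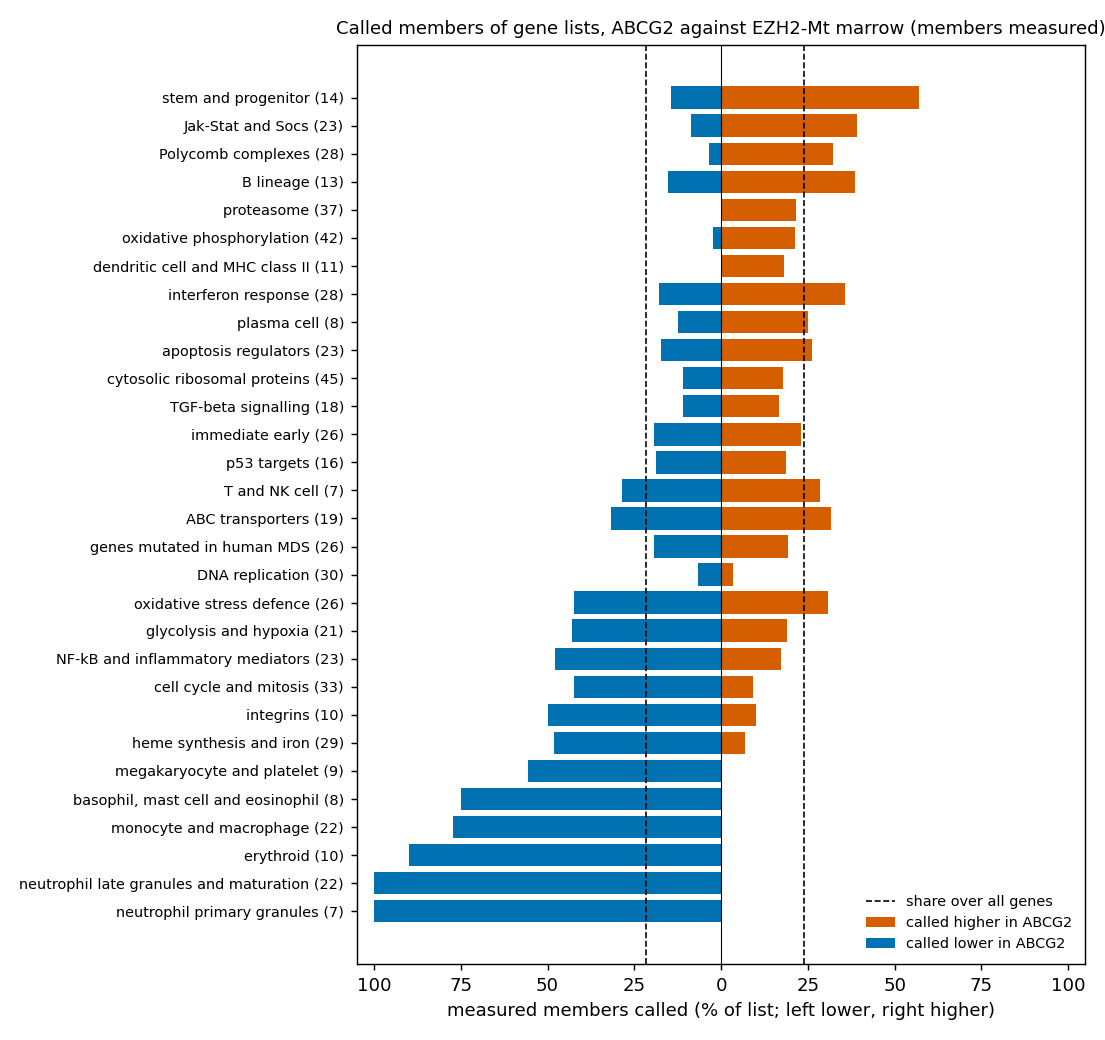
Share of the measured members of each gene list (number measured in brackets, vertical axis) called lower (left) or higher (right) in ABCG2 than in EZH2-Mt marrow, in percent. Dashed lines mark the shares over all 8378 genes, 21.6% lower and 24.0% higher, and the neutrophil lists reach 100% lower. The stroma list, with 2 genes measured, is not drawn.

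Socs2, a feedback inhibitor of growth hormone and cytokine signals, had the largest positive difference of all genes. It read 1.61 on the GFP-negative and -0.63 on the GFP-positive array, -1.36 to 0 on mock, and 6.61 and 6.65 on the ABCG2 arrays. The fractions were themselves apart, and the ABCG2 arrays were far above all others. The difference was 6.14 ± 0.65 (adjusted p = 0.000938), or 70.4-fold if the logs are base 2. It was 5.02 against the GFP-negative and 7.26 against the GFP-positive array. Of the 23 measured Jak-Stat and Socs genes, 9 were called higher (39.1%) and 2 lower (8.70%), against 24.0% and 21.6% of all genes. The kinase gene Pim2 (3.60 ± 0.35), the Stat5 target Cish (2.74 ± 0.28) and Socs5 (2.11 ± 0.24) were higher. Socs3 was higher by 1.42 ± 0.34, a call lost without the GFP-positive array. Stat3 was lower (-1.31 ± 0.23). Without the GFP-positive array 5 members were called higher.

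The remaining genes at the high end belong to no common list. Apold1, first described in blood vessel cells, differed by 5.90 ± 0.40, and Grb10, an adaptor that restrains insulin signals, by 5.74 ± 0.31. In Grb10 the EZH2-Mt arrays (-2.03 and -1.17) lay below the lowest mock array (-1.08). Cnn3, a calponin that binds actin, differed by 5.07 ± 0.46 over 6 probe sets, which ranged from 2.75 to 6.08. Snn (4.66 ± 0.28), Grhpr, of glyoxylate breakdown (4.65 ± 0.31), the zinc finger gene Zfp760 (4.22 ± 0.51) and Elovl6, a fatty acid elongase (4.17 ± 0.26), were higher as well, each with ABCG2 arrays above all 5 others. Among genes with EZH2-Mt marrow at mock, E330020D12Rik was the sixth highest (4.0 ± 0.23).

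Where EZH2-Mt marrow alone had left mock, the largest differences were smaller. Among genes lower in ABCG2 than in EZH2-Mt marrow, Klrc1, an inhibitory receptor chain of NK cells, read 5.18 on the GFP-negative and 2.14 on the GFP-positive array, -1.82 to 0 on mock, and -0.51 and 0.04 on the ABCG2 arrays. Both fractions lay above mock, the GFP-negative one by far the more, and the difference was -3.89 ± 0.88 (adjusted p = 0.0136). Osm, the cytokine oncostatin M, had the same order of the fractions (2.52 and 1.25) and a difference of -3.08 ± 0.44. The erythroid genes Hemgn (-2.94 ± 0.42), Rhag and Ermap had the opposite order of the fractions, with GFP-positive highest. Tent5c, a poly(A) polymerase, differed by -2.58 ± 0.51, a call lost without the GFP-positive array.

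Among genes with low EZH2-Mt arrays, Hspa1b, a stress-induced chaperone with a near-identical neighbouring copy, read -2.26 on both fractions, -0.24, 2.14 and 2.63 on mock, and 0 and 1.18 on the ABCG2 arrays. The mock arrays spread widely and contained the ABCG2 arrays, and the difference was 2.85 ± 0.38. Scpep1, a serine carboxypeptidase, read -1.78 and -1.58 in EZH2-Mt marrow and from -0.13 to 0.55 on the other 5 arrays (1.95 ± 0.25). Tmem109 (1.91 ± 0.23), the mitochondrial glutamate carrier gene Slc25a22 (1.75 ± 0.25), the caveolin gene Cav2 (1.70 ± 0.23) and S100a10, a partner of annexins (1.60 ± 0.21), had low EZH2-Mt arrays and ABCG2 arrays near mock.

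**Figure D4:**
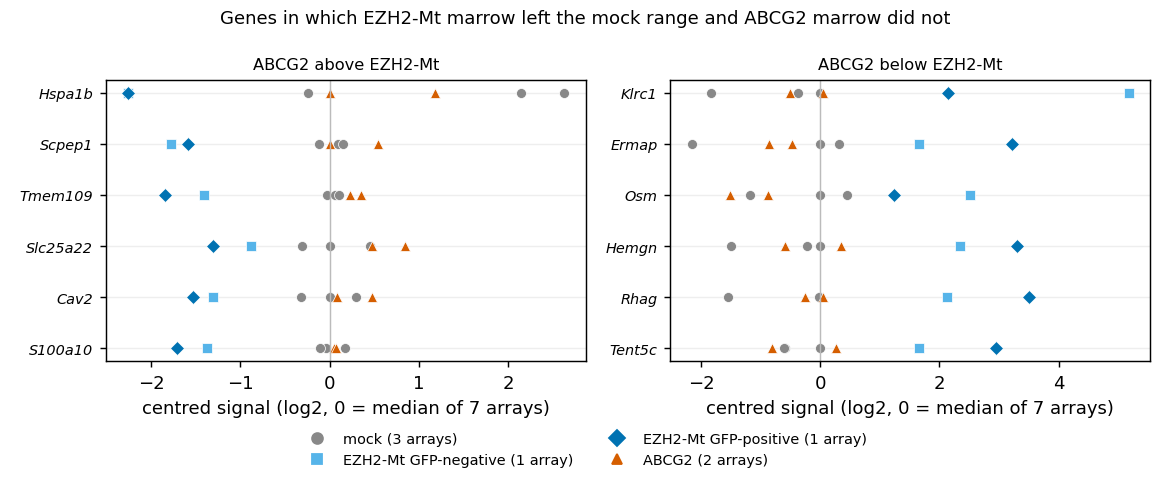
Centred log2 signal (horizontal axis) of the 6 genes in each direction with the largest difference among those in which both EZH2-Mt arrays left the mock range and both ABCG2 arrays did not, 1 point per array. Triangles (ABCG2) lie among or near the circles (mock), while the EZH2-Mt points lie to one side.

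In 67 called genes the marrows left mock on opposite sides. Hmgn3, a nucleosome-binding protein, read -1.33 and -1.40 in EZH2-Mt marrow, -0.01 to 0.04 on mock, and 3.14 and 3.18 in ABCG2 marrow. The 3 groups were tight and apart, and the difference was 4.53 ± 0.19 (adjusted p = 0.000113). The small GTPase gene Rhoq (4.14 ± 0.43), Serf1 (4.04 ± 0.21), the peroxiredoxin gene Prdx4 (3.33 ± 0.24) and the ADP/ATP carrier gene Slc25a4 (3.02 ± 0.20) had the same order. So did Ccnd1, cyclin D1, with -1.01 and -1.88 in EZH2-Mt marrow, -0.26 to 0.46 on mock and 1.71 and 2.39 in ABCG2 marrow (3.50 ± 0.36). On the other side, the kinase gene Hipk2 read 1.21 and 1.26 in EZH2-Mt marrow, -0.09 to 0.14 on mock and -3.37 and -3.20 in ABCG2 marrow (-4.52 ± 0.20). Btnl9 (-4.70 ± 0.33), the stress-response gene Ier3 (-3.93 ± 0.47) and the E2F factor gene E2f2 (-3.42 ± 0.25) shared that order with Mcpt8. Lyz1 (-3.53 ± 0.31) did too, though its probe sets may also read its near-identical neighbour Lyz2. Without the first mock array, 111 genes were in this class.

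**Figure D5:**
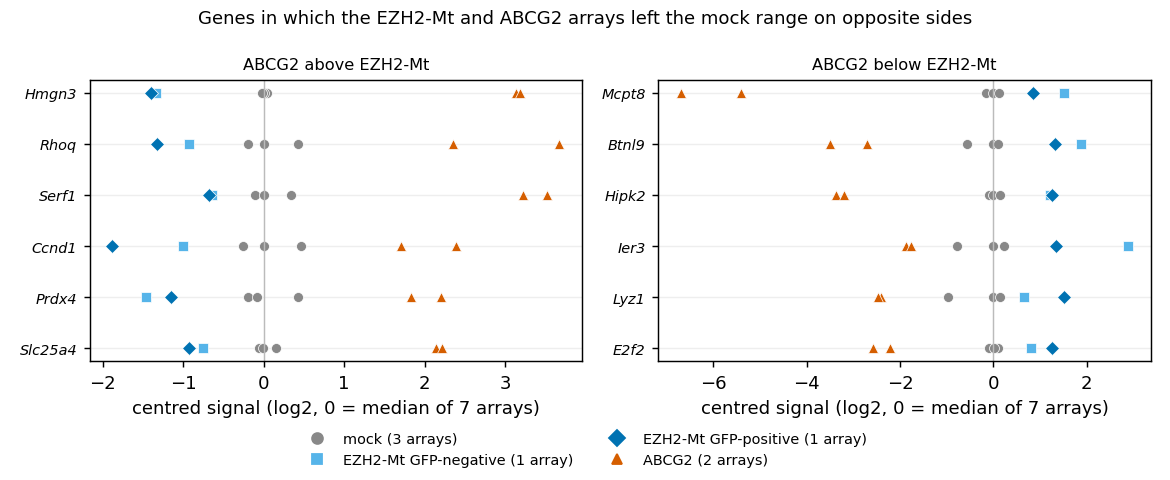
Centred log2 signal (horizontal axis) of the 6 genes in each direction with the largest difference among those in which the EZH2-Mt and ABCG2 arrays left the mock range on opposite sides, 1 point per array. The circles (mock) lie between the ABCG2 triangles and the EZH2-Mt points in all 12 genes.

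The genes that left mock in the same direction were led, on the low side, by Thbs1, Cd300lb, a receptor of myeloid cells (-5.81 ± 0.45), F13a1, the methionine sulfoxide reductase gene Msrb1 (-5.01 ± 0.19), Cd14 and the chemokine gene Ccl6 (-4.74 ± 0.31). On the high side they included Bach2, Nlrc3, a brake on innate immune signals (2.31 ± 0.28), Slfn10-ps (2.12 ± 0.22), the heparan sulfate enzyme gene Hs3st1 (1.82 ± 0.26) and Smyd4 (1.58 ± 0.24).

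The mouse genes that share a name with the transgenes were both called. Abcg2 read 0.84 on the GFP-negative and 1.35 on the GFP-positive array, -0.17 to 0.02 on mock, and -0.92 and -0.91 on the ABCG2 arrays. It was lowest in the marrow that carried the ABCG2 transgene and highest in EZH2-Mt marrow, by -2.01 ± 0.24 (adjusted p = 0.00135). The labels do not say whether the probe set reads the transgene, so the value checks no label. Ezh2 read -0.14 and -0.16 in EZH2-Mt marrow, -0.22 to 0.14 on mock, and 0.35 and 0.68 in ABCG2 marrow. The EZH2-Mt arrays lay at mock, and the difference of 0.67 ± 0.21 (adjusted p = 0.0422) was lost when any of the 4 arrays was left out and with only the probe set of largest SD (adjusted p = 0.0599).

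Polycomb genes were called higher in 9 of 28 (32.1%) and lower in 1 (3.57%), against 24.0% and 21.6% of all genes. The median of the list was 0.51 (0.32 after quantile normalization). Bmi1, a core member of Polycomb repressive complex 1, read 0.12 and -0.76 in EZH2-Mt marrow, -0.33 to 0.11 on mock, and 1.99 and 2.15 in ABCG2 marrow, a difference of 2.39 ± 0.31. Pcgf6 (2.38 ± 0.22) and Cbx6 (2.04 ± 0.20), also of complex 1, and Aebp2 (1.10 ± 0.20), a cofactor of complex 2, were higher with EZH2-Mt arrays at mock. Pcgf3 was higher by 1.43 ± 0.26, a call lost without the GFP-negative array, and without that array 5 members were called higher. Phf1, another cofactor of complex 2, was lower (-1.63 ± 0.21). The other core members of complex 2, Eed (0.33) and Suz12 (-0.19), were not called.

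Of 26 genes mutated in human MDS, 5 were called higher (19.2%) and 5 lower (19.2%), each share below that of all genes. The DNA methyltransferase gene Dnmt3a (1.87 ± 0.24), Idh2 (1.42 ± 0.23), the mitochondrial isocitrate dehydrogenase, and the nucleolar gene Npm1 (1.23 ± 0.20) were higher. Idh1, the cytosolic isocitrate dehydrogenase, was lower (-2.75 ± 0.21), as was the cohesin gene Stag2 (-0.96 ± 0.20). Nf1, a brake on Ras, was lower (-0.97 ± 0.29) with EZH2-Mt arrays above mock, a call lost without either ABCG2 array or without the GFP-positive array. From 3 to 4 members were called higher and from 2 to 3 lower when 1 array was left out, with 2 lower without the first ABCG2, the second ABCG2 or the GFP-positive array, and 3 higher without the first ABCG2 or the GFP-positive array. Tet2 (-0.62), Asxl1 (-0.22), Runx1 (-0.14) and Sf3b1 (0.04) were not called.

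ABC transporter genes were split, with 6 higher (31.6%) and 6 lower (31.6%) of 19, against 24.0% and 21.6% of all genes. Abca7 (-1.94 ± 0.20), Abcc5 (-1.64 ± 0.21), Abcb10, of the erythroid mitochondrion (-1.50 ± 0.26), and Abcc4 (-1.39 ± 0.20) were lower beside Abcg2, and the peptide transporter gene Tap1 (1.49 ± 0.24) was higher. Without the second ABCG2 array or without the GFP-negative array 3 members were called higher.

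Cell cycle genes were called lower in 14 of 33 (42.4%) and higher in 3 (9.09%), against 21.6% and 24.0% of all genes. The median of the list was -0.76. Rrm2, a subunit of ribonucleotide reductase, read 0.94 and 1.08 in EZH2-Mt marrow, -0.21 to 0.04 on mock, and -1.29 and -0.74 in ABCG2 marrow, so the marrows lay on opposite sides of mock (-2.02 ± 0.25). The proliferation marker gene Mki67 (-1.88 ± 0.35) and the cyclin E genes Ccne2 (-1.79 ± 0.33) and Ccne1 (-1.37 ± 0.29) were lower, the last only while both EZH2-Mt arrays were kept. The D-type cyclins Ccnd1 and Ccnd2 (2.68 ± 0.20) were higher. The count of genes called lower was 9 without the first ABCG2 array, 18 without the second, 9 without the GFP-negative and 8 without the GFP-positive array. DNA replication genes were seldom called, with 1 higher (3.33%) and 2 lower (6.67%) of 30, against 24.0% and 21.6% of all genes. Cdc45, of the replicative helicase, was lower (-1.53 ± 0.27), and the calls for Rfc2 (-0.61) and Mcm6 (0.75) were lost when any of the 4 arrays was left out. The counts were then 0 to 2 higher and 1 to 2 lower.

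Inflammatory mediator genes were called lower in 11 of 23 (47.8%) and higher in 4 (17.4%), against 21.6% and 24.0% of all genes. The median of the list was -0.65 (-0.30 without the second ABCG2 array). Il1b, interleukin-1 beta, read 0.25 and 0 in EZH2-Mt marrow, -0.47 to 0.50 on mock, and -4.97 and -4.56 in ABCG2 marrow, with the EZH2-Mt arrays inside the mock range (-4.89 ± 0.23). The chemokine gene Cxcl2 (-5.65 ± 0.48), Tnfaip2 (-4.17 ± 0.52) and Il6 were lower too. Ccl3, another chemokine, was lower (-3.47 ± 0.55), with high EZH2-Mt arrays (2.78 and 1.28) and ABCG2 arrays below mock (-1.97 and -0.90). Il1r2, a decoy receptor, read -1.77 and -5.91 on the ABCG2 arrays, and its difference of -3.82 ± 1.17 was lost without either EZH2-Mt array.

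Immediate early genes were near the shares of all genes, with 6 higher (23.1%) and 5 lower (19.2%) of 26. The phosphatase gene Dusp2 was higher by 3.21 ± 0.37. Egr3 (3.0 ± 0.63), Nr4a2 (2.38 ± 0.43), Myc (2.07 ± 0.59) and Klf2 (-2.18 ± 0.53) each lost the call without the GFP-positive array, and Myc and Klf2 also without the GFP-negative array. Without the GFP-positive array 1 member was called higher and 2 lower, and without the GFP-negative array 1 was called lower.

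Interferon response genes were called higher in 10 of 28 (35.7%) and lower in 5 (17.9%), against 24.0% and 21.6% of all genes. Xaf1 (2.20 ± 0.38) and the guanylate-binding protein gene Gbp2 (1.59 ± 0.27) were higher, with EZH2-Mt arrays below mock. Gbp2 read -1.11 and -1.47 in EZH2-Mt marrow, -0.13 to 0.39 on mock and 0 and 0.58 in ABCG2 marrow. Psmb8 (1.39 ± 0.21) and Tap1, of antigen processing, were higher, and Oasl1 was higher by 1.80 ± 0.40, a call lost without the GFP-negative array. The viral RNA sensor gene Ifih1 (-2.39 ± 0.23) and Samhd1 (-1.67 ± 0.21), which degrades nucleotides, were lower. The count called higher was 9 without the first ABCG2 array, 5 without the second, 4 without the GFP-negative and 5 without the GFP-positive array. The count called lower was 3, 7, 5 and 3 in the same order.

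Redox genes moved in both directions. Of 26, 8 were called higher (30.8%) and 11 lower (42.3%), against 24.0% and 21.6% of all genes. The largest differences were in Mgst1, a membrane glutathione transferase (-5.61 ± 0.40), the glutaredoxin gene Glrx (-4.46 ± 0.25) and Gsr, glutathione reductase (-4.31 ± 0.21), which neutrophils use in the oxidative burst. Nqo1 (-1.86 ± 0.23) and Gclm (-1.70 ± 0.24) were lower, with EZH2-Mt arrays above mock and ABCG2 arrays below it. The count called higher was 3 without the first ABCG2 array, 2 without the second, 4 without the GFP-negative and 3 without the GFP-positive array.

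Glycolysis and hypoxia genes were called lower in 9 of 21 (42.9%) and higher in 4 (19.0%), against 21.6% and 24.0% of all genes. Pfkfb4, a regulator of glycolytic flux (-3.30 ± 0.22), Ero1a, of disulfide formation (-2.63 ± 0.24), the glucose transporter gene Slc2a3 (-2.41 ± 0.21) and hexokinase Hk2 (-1.46 ± 0.21) were lower, all with EZH2-Mt arrays at mock. Pdk1, which shuts pyruvate out of the mitochondrion, was higher by 1.84 ± 0.19. Vegfa was higher by 1.92 ± 0.42, a call lost without either EZH2-Mt array. The count called higher was 2 without the first ABCG2 array, 1 without the GFP-negative and 2 without the GFP-positive array.

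Oxidative phosphorylation genes were called higher in 9 of 42 (21.4%) and lower in 1 (2.38%), and proteasome genes higher in 8 of 37 (21.6%) and lower in 0. On both lists the shares lay below those of all genes, 24.0% higher and 21.6% lower. Named members differed by 0.77 to 1.39 (Psma7 0.77 ± 0.20, Psmb8 1.39 ± 0.21, Sdhd 1.07 ± 0.23, Ndufs3 0.96 ± 0.20). The call for Sdhd was lost without the GFP-positive array, and that for Psma7 without the second ABCG2 array or without either EZH2-Mt array. For oxidative phosphorylation 5 were called higher without the first ABCG2 array, 2 without the second, 4 without the GFP-negative and 5 without the GFP-positive array, and for the proteasome 5, 2, 4 and 1. Of 45 cytosolic ribosomal protein genes, 8 were called higher (17.8%) and 5 lower (11.1%), both below the shares of all genes. Rpl14 (2.92 ± 0.21), Rps6 (1.9 ± 0.20) and Rpl37 (1.67 ± 0.20) had the marrows on opposite sides of mock, and Rpl27a was lower (-2.04 ± 0.47) with EZH2-Mt arrays above mock (1.09 and 2.62). Ribosomal protein genes have many processed copies, so these probe sets are uncertain. The count called lower was 1 without the first ABCG2 array, 2 without the second, 9 without the GFP-negative and 1 without the GFP-positive array.

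Apoptosis regulators were called higher in 6 of 23 (26.1%) and lower in 4 (17.4%), near the 24.0% and 21.6% of all genes. Bmf, a death-promoting relative of Bcl2, was higher by 3.19 ± 0.33, Casp6 by 2.0 ± 0.30 and Diablo by 1.65 ± 0.23. Bcl2 itself was higher by 1.57 ± 0.28, with both marrows above mock. With only the probe set of largest SD the Bcl2 difference was 0.33 and did not pass the test (adjusted p = 0.554). Bcl2l11 was higher by 1.56 ± 0.45, a call lost without the first ABCG2 array or without either EZH2-Mt array, and Casp1 was lower (-1.59 ± 0.31). Genes regulated by p53 were split, with 3 higher (18.8%) and 3 lower (18.8%) of 16, both below the shares of all genes. Ddit4 (3.05 ± 0.52) and Sesn1 (2.04 ± 0.27), both brakes on mTOR, were higher and Gadd45a (-2.57 ± 0.29) lower. The calls for Perp (-2.06 ± 0.46), Mdm2 (-1.39 ± 0.27) and Aen (1.34 ± 0.25) were lost without the GFP-negative array, which left 1 member called lower. Without the first ABCG2 array 5 were called lower.

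TGF-beta signalling genes were called higher in 3 of 18 (16.7%) and lower in 2 (11.1%), both below the shares of all genes. Smad3 (2.03 ± 0.22) and Smad1 (1.48 ± 0.21) were higher, and Zeb2, a repressor in the same pathway, was lower (-1.84 ± 0.31) with both marrows below mock. With the probe set of largest SD the call for Smad5 was lost (adjusted p = 0.0590). The calls for Smad5 (1.07 ± 0.24) and Smurf2 (-0.95 ± 0.24) were lost without the second ABCG2 array or the GFP-positive array, that for Smurf2 also without the GFP-negative array, and without the second ABCG2 array 6 members were called higher. Of 10 integrin genes 5 were called lower (50.0%) and 1 higher (10%), against 21.6% and 24.0% of all genes. Itgb2, the chain shared by leukocyte integrins, was lower (-2.62 ± 0.23), as was Itgb1 (-1.26 ± 0.19), while Itga4, which binds marrow stroma, was higher by 2.31 ± 0.22, all 3 with EZH2-Mt arrays at mock.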

How the data were processed

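Total RNA of 7 bone marrow samples was hybridized to Affymetrix Mouse430_2 arrays. The deposited values, on a log scale taken here as log2, are normalized signals, per the file headers, kept for probe sets with a Present or Marginal call in all samples and raw signals between 3.0 and 120534.25. Per the submitters' processing notes MAS5 was used, and the log base and the scaling between arrays are not given in the sources used here. The largest range over the arrays, 8.70, is too wide for base 10, and base 2 was assumed. Natural logs are possible and would change every fold.

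The 54 control probe sets were set apart. Of the other 16255, 14229 had 1 gene symbol, 483 several and 1543 none, and the mean over probe sets of 1 symbol gave 8378 genes. The 2 ABCG2 and the 2 EZH2-Mt arrays were compared with limma 3.58.1 in R 4.3.3 (lmFit, eBayes, two-sided, Benjamini-Hochberg, threshold 0.05; 2 residual degrees of freedom, 4.39 prior). An exact permutation test of 2 against 2 cannot go below 0.333 (two-sided), so none is given. In simulated data of 16255 probe sets the fit found 22% of 50 differences of 1 log2 and 100% of 50 at each of 2, 4 and 6, with 15 false calls. All other simulated probe sets held no difference, with independent normal noise, whereas 40.5% of probe sets were called in the data. The shares found therefore hold for the simulated setting only. The number of arrays limits the precision.

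Named genes are the 12 largest differences in each direction, up to 6 called members per list, 6 per class and direction against mock, genes that separate the fractions, Abcg2 and Ezh2. The comparison, its members and the 31 lists were chosen with earlier results of these data known. Some genes stand on several lists. Alternatives covered arrays in the fit, scaling, left-out arrays, a minimum difference, the probe set used and the margin around mock.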

Additional observations from a re-analysis of the deposited data

Results flagged for a closer look

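The spike-in control transcripts belong to no comparison and lay above their level on the mock arrays in both EZH2-Mt fractions. Over 40 probe sets their median was 1.52 on the GFP-negative array and 3.09 on the GFP-positive array, against 0 on each mock array. The poly-A controls alone had medians of 1.79 and 3.50 on these arrays, and -1.04 and -1.49 on the ABCG2 arrays.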

How the results depend on the processing

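Of 200 named genes followed under the alternatives, mostly called ones, none changed direction; the other genes named were not followed. The count of 3822 genes was 2202 after quantile normalization, which narrows the wide ABCG2 arrays by construction, and 835 when a minimum difference of 1 was tested, and it ranged from 2638 to 3078 when 1 array was left out. For probe sets the count of 6579 was 3543, 1206 and from 3919 to 5012 in the same order. After quantile normalization the counts against the GFP-negative and GFP-positive arrays were 1588 and 1180. The 123 genes with EZH2-Mt marrow alone beyond mock were 45 with a margin of 1. The 67 genes on opposite sides of mock were 301 with a margin of 0.25, 3 with a margin of 1 and 111 without mock replicate 1 (chosen after seeing the data), and the 115 on the same side were 267 and 29 with these margins. The cause of these shifts in the classes was not tested. Of the 200 genes, 35 lost the call after quantile normalization and 85 with a minimum difference of 1. Left-out arrays cost 8 (ABCG2 replicate 1), 17 (ABCG2 replicate 2), 22 (GFP-negative) and 30 (GFP-positive), and Klrd1 gained a call. Adding the mock arrays to the fit cost 2 and the probe set with the largest SD 5. No paired analysis was possible because only mock and ABCG2 titles carry numbers and no EZH2-Mt title does.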
